A study of Rattus norvegicus with 9 samples.

Results

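The genes described here encode the nuclear subunits of the mitochondrial respiratory chain and ATP synthase, measured in the liver of 9 male Goto-Kakizaki (GK) rats, an inbred strain that becomes diabetic without being obese. Members were all genes on the array with a symbol of their own that begins with Ndufa, Ndufb, Ndufc, Ndufs or Ndufv (complex I), Sdha to Sdhd (complex II), Uqcr or Cyc1 (complex III), Cox4 to Cox8 (complex IV) or Atp5 (complex V). This gave 85 of 14217 genes, with 36 in complex I, 8 in complex II, 8 in complex III, 17 in complex IV and 16 in complex V. Of these, 79 are subunits. The others are 4 assembly factors of complex II (Sdhaf1 to Sdhaf4), which the Sdha prefix takes in, the pseudogene Cox6c-ps1 and Atp5if1, the inhibitor protein of ATP synthase. Each gene was read from 1 probe set, the one with the highest mean log2 signal over the 9 arrays.

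Control 1–3 were GK rats kept without stress. CUMS 1–6 were GK rats that had been housed singly and exposed to 8 weeks of chronic unpredictable mild stress (CUMS), a schedule of changing daily stressors used to bring on depressive-like behaviour. The sample labels give CUMS 1–3 the symptom major depression, CUMS 4–6 mild depression and the controls none (n = 3 each). All 9 rats were diabetic, including the controls, and per the methods of the study all had received oral repaglinide, a glucose-lowering drug, before the livers were taken. The sources used here do not say how a stressed rat was assigned to major or mild, so those labels describe animals and not a separate treatment. The arrays of the 3 groups were compared to ask whether stress, and its symptom label, went with a different expression of the respiratory chain in a diabetic liver.

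The respiratory chain sits in the inner mitochondrial membrane. Complex I takes electrons from NADH and complex II from succinate, both hand them to ubiquinone, complex III passes them on to cytochrome c, and complex IV gives them to oxygen. Complexes I, III and IV pump protons as they do so, and complex V, the ATP synthase, lets the protons back to make ATP. Most subunits are encoded in the nucleus and imported. A small core is encoded in mitochondrial DNA. The hepatocyte is rich in mitochondria and uses this chain to support gluconeogenesis, urea synthesis and the oxidation of fatty acids. Several complex IV subunits exist as liver-type and as heart- and muscle-type isoforms.

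Values are MAS 5.0 signals, a linear intensity of a probe set scaled per array. Differences are differences of mean log2 signal, where 1 is a doubling. A signal of 1 probe set cannot be set against that of another as a level of expression, so all comparisons are of the same probe set between rats. In a piece of liver, fewer cells of a type and less RNA per cell cannot be told apart. The liver label was borne out by albumin (Alb), at 17128 to 29583 in the 9 rats, and transthyretin (Ttr), at 20178 to 26549. Myoglobin (Mb), of muscle, read 3.38 to 34.1 and Ucp1, of brown fat, 2.01 to 71.0. The summed signal of 13 muscle markers was 8557 to 14171. That of 9 brown fat markers was 4315 in control 3 and 768 to 1601 in the others.

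One control liver stood apart. Control 3 had a median correlation of 0.951 with the other arrays, against 0.965 to 0.972 for the rest. The summed signal of 6 bile duct markers was 9390 in control 3, 1079 and 1212 in control 2 and control 1, 756 to 1258 in CUMS 1–3 and 952 to 1179 in CUMS 4–6. That of 15 stellate cell and fibroblast markers was 42476 in control 3 against 11279 and 11341 in the other controls, 7172 to 8057 in CUMS 1–3 and 8577 to 10544 in CUMS 4–6. Krt7, a defining bile duct marker, was near background in all 9 rats, at 2.96 to 8.88. Fabp4, a fatty acid carrier of adipocytes, endothelium and macrophages, read 3550 in control 3 and 40.03 to 120.2 in the other 8 rats. The summed signal of 18 hepatocyte markers was lowest in control 3, at 411588, with 417980 to 535513 in the others. The 3′ to 5′ ratio of actin, a measure of RNA integrity, was 5.23 in CUMS 2, 4.96 in CUMS 4, 2.51 in control 3 and 3.18 to 3.73 in the other rats. The part of these features in the results was not tested.

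The respiratory chain differed little between the groups, and what difference there was went the same way in most genes. Of the 85 members, 74 had a higher mean in CUMS 1–3 than in the controls and 11 a lower one, with a median log2 difference of 0.10, which is 6.89% higher. In CUMS 4–6, 73 were higher and 12 lower, with a median of 0.16, which is 11.4% higher. Over all genes tested the median was −0.02 in both comparisons. The CUMS groups were compared with the same control rats, so the results of one are not independent of the other. Without control 3, the median of the members was 0.03 in CUMS 1–3, with 53 of 85 higher, and 0.09 in CUMS 4–6, with 71 higher. Leaving out this rat turned the direction of 22 of the 78 members above the signal filter in CUMS 1–3 and of 4 in CUMS 4–6.

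No member passed the test. A gene was tested if its mean log2 signal was above the lowest 40% of probe sets, which 78 members were, and called where limma gave a p under 0.05 after Benjamini-Hochberg adjustment over 18625 probe sets. The calls numbered 0 in CUMS 1–3, in CUMS 4–6, in all CUMS rats and in CUMS 1–3 against CUMS 4–6, both among the members and over the whole array (0% of probe sets in each). At an unadjusted p under 0.05 in CUMS 1–3, 1 member was higher and 0 were lower, against 2.59% of all probe sets higher and 4.17% lower. In CUMS 4–6, 12 members were higher and 0 lower, against 2.73% and 3.55% of all probe sets. For all 6 CUMS rats 11 members were higher and 0 lower, against 3.07% and 4.86%. Without control 3, the counts of higher members were 0, 5 and 2. The standard error of a member's log2 difference had a median of 0.11 and ran from 0.08 to 0.29.

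**Figure D1:**
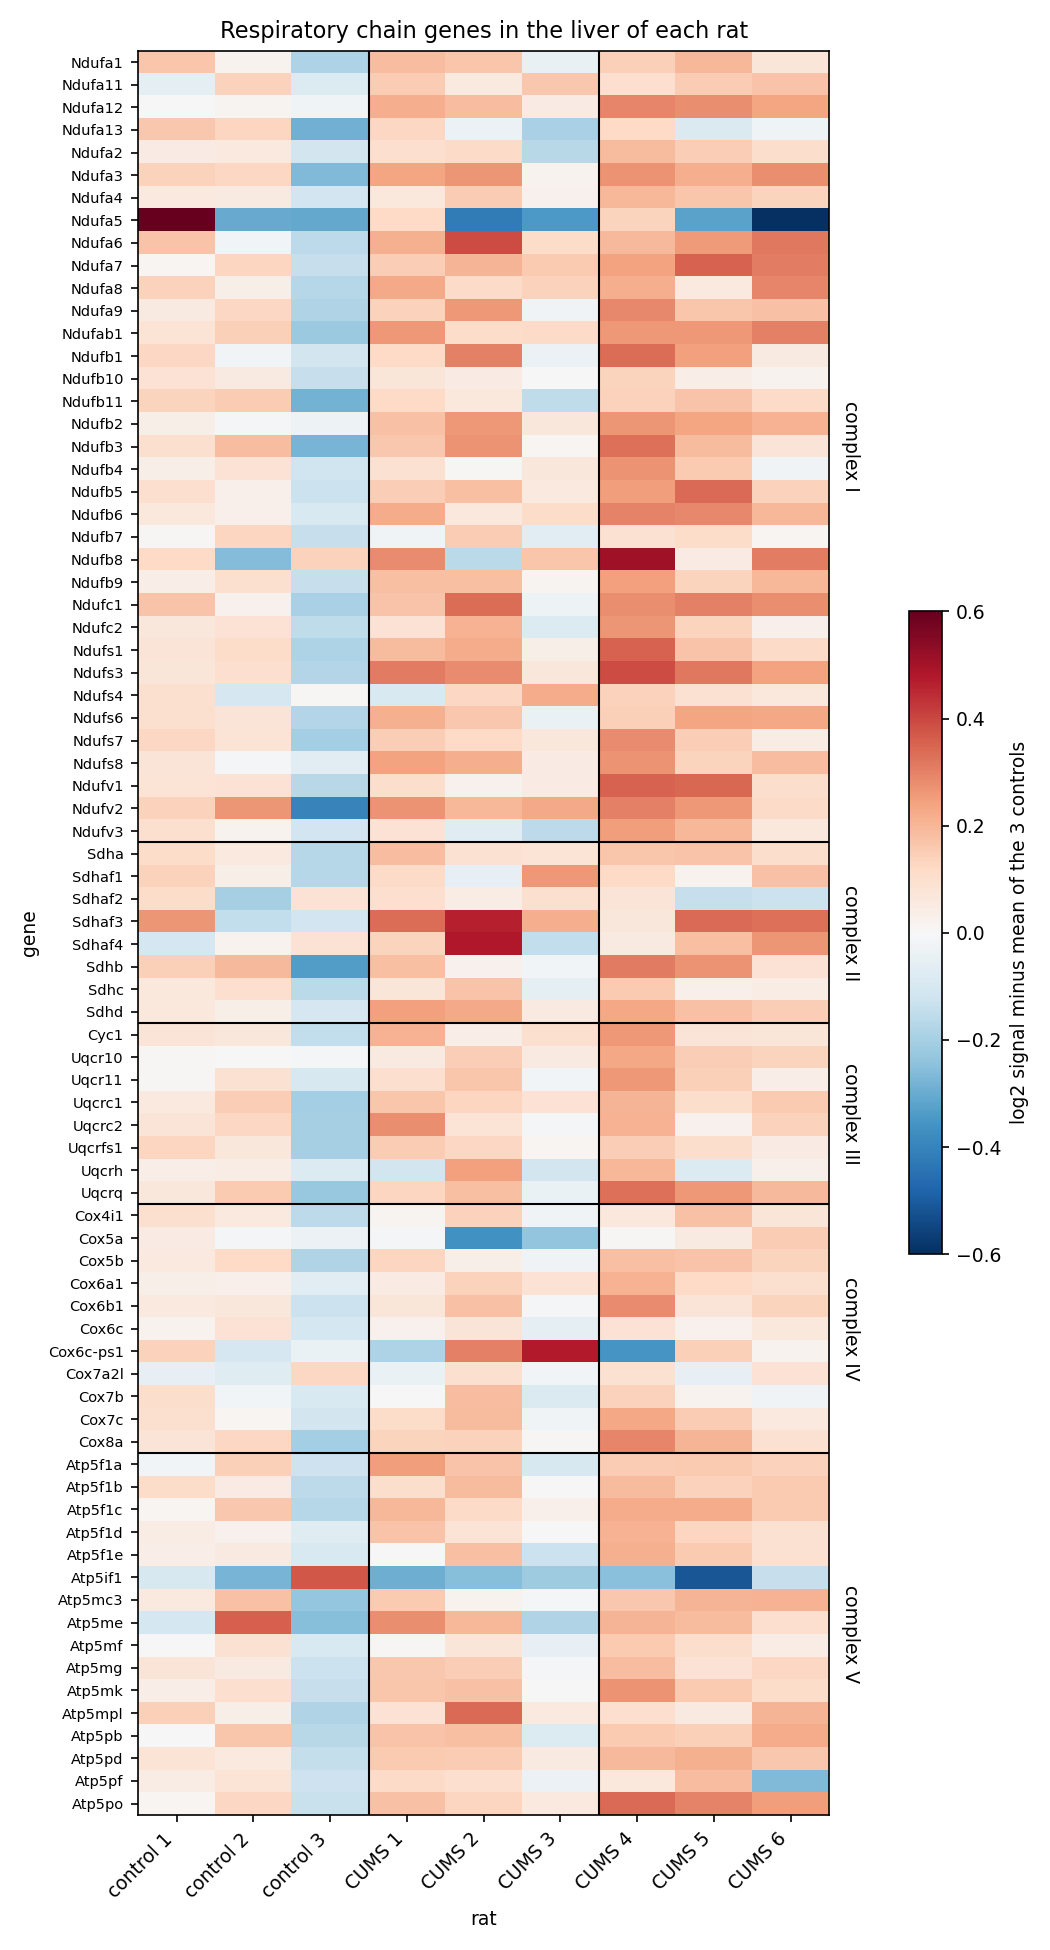
Log2 signal of each of the 78 members above the signal filter (rows, by complex) in each rat (columns), minus the mean of the 3 controls. Red is higher and blue lower, and values past the ends of the scale take the end colour. Control 3 is blue in most rows, CUMS 4 is the reddest column, and Atp5if1 runs against the other genes.

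The picture of the members by rat shows that most genes of a liver were high or low together. Control 3 had the lowest signal of all 9 rats for 63 of the 78 members tested, and the lowest of the controls for 70. Over all genes tested, control 3 was the lowest rat for 16.8% and the highest for 22.4%. CUMS 4 had the highest signal for 39 of the 78 members, against 11.5% of all genes tested. The median signal of an array was highest in control 3, at 133, and lowest in CUMS 4, at 107. The part of this in the order of the rats was not tested. The mean over the 78 members, relative to the control mean, was 0.08, 0.06 and −0.13 in control 1 to control 3, 0.13, 0.13 and 0.01 in CUMS 1 to CUMS 3, and 0.20, 0.14 and 0.11 in CUMS 4 to CUMS 6. CUMS 3 lay below control 1 and control 2, and all of CUMS 4–6 lay above the 3 controls. The spread within a group was small, with a median SD of a member's log2 signal of 0.13 among the controls, 0.10 among CUMS 1–3 and 0.06 among CUMS 4–6, against 0.21, 0.18 and 0.18 over all genes tested.

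**Figure D2:**
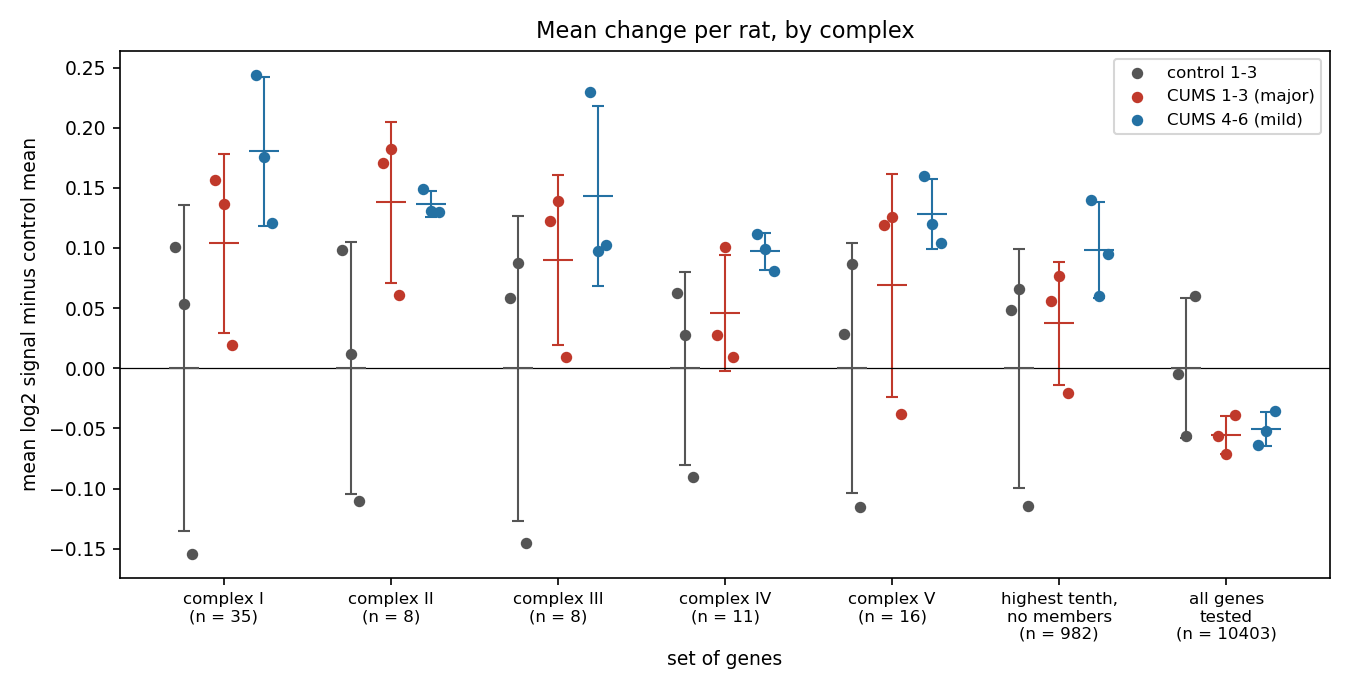
Mean log2 signal minus the control mean per rat (points), with the group mean and SD (bars, n = 3 rats), for the tested genes of each complex, for the genes in the highest 10% by signal that are not members, and for all genes tested. In each complex control 3 lies lowest. In complexes I, III and IV the points of CUMS 3 lie at 0.02, 0.01 and 0.01, and in complex V at −0.04.

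Complex I, the entry point of NADH electrons, had median differences of 0.12 in CUMS 1–3 (32 of 36 genes higher) and 0.20 in CUMS 4–6 (34 of 36 higher). Leaving out control 3 made these 0.04 (25 of 36 higher) and 0.11 (31 of 36 higher). It also held 10 of the 12 members with an unadjusted p under 0.05 in CUMS 4–6, and 35 of the 78 members tested. Ndufs3, a core subunit of the arm that reaches into the matrix, read 3444, 3512 and 2902 in control 1 to 3. It read 4063, 3985 and 3435 in CUMS 1 to 3, and 4296, 4077 and 3871 in CUMS 4 to 6. All of CUMS 4–6 lay above the controls, while CUMS 3 lay among them. Its log2 difference from control was 0.22 in CUMS 1–3 and 0.32 in CUMS 4–6 (SE 0.11, limma adjusted p = 0.753 and 0.744). Ndufv1, the subunit that binds NADH, read 2962, 2971 and 2500 in the controls, 3015, 2856 and 2902 in CUMS 1 to 3 and 3585, 3561 and 3016 in CUMS 4 to 6. CUMS 4 and CUMS 5 stood well above the rest, CUMS 6 lay just above CUMS 1, and the log2 difference was 0.06 in CUMS 1–3 and 0.27 in CUMS 4–6 (adjusted p = 0.945 and 0.770). The differences of Ndufv1 without control 3 were −0.02 and 0.19. Ndufv2, its partner in the NADH-binding module, read 5625, 6138 and 3868 in the controls and 5537 to 6298 in the 6 CUMS rats, with differences of 0.23 and 0.22, which without control 3 were 0.03 and 0.02.

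The other core subunits of complex I had log2 differences that no test passed. Ndufs1, the largest subunit of the NADH-binding module, had 0.15 in CUMS 1–3 and 0.21 in CUMS 4–6. Ndufs7 and Ndufs8, which hold iron-sulphur clusters on the way to ubiquinone, had 0.11 and 0.16, and 0.17 and 0.20. The values of Ndufs1 without control 3 were 0.06 and 0.12 and those of Ndufs7 0.01 and 0.06. Among the accessory subunits, which surround the core, Ndufa12 had controls close together. It read 4267, 4304 and 4197 in the controls, 4957, 4835 and 4410 in CUMS 1 to 3, and 5216, 5167 and 5017 in CUMS 4 to 6. All 6 CUMS rats were above all 3 controls and all of CUMS 4–6 above all of CUMS 1–3, and the log2 differences from control were 0.15 and 0.27 (SE 0.09, adjusted p = 0.774 and 0.744). Without control 3 they were 0.14 and 0.26. Ndufa7 read 3547, 3851 and 3199 in the controls, 3898, 4054 and 3921 in CUMS 1 to 3 and 4161, 4500 and 4355 in CUMS 4 to 6, again in 3 ranges that do not overlap (0.17 and 0.30, adjusted p = 0.775 and 0.744). A dimmer probe set of Ndufa7, at 201 to 358, did not share this. Its ranges overlapped between all groups, with differences of −0.05 and 0.18. Ndufb2 read 5586, 5441 and 5353 in the controls, 6161, 6546 and 5723 in CUMS 1 to 3, and 6555, 6430 and 6311 in CUMS 4 to 6, with both CUMS groups above the controls (0.17 and 0.24, adjusted p = 0.759 and 0.749).

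Other accessory subunits leaned more on control 3. Ndufab1, the mitochondrial acyl carrier protein that is also a subunit of complex I, read 4984, 5203 and 4045 in the controls and 5094 to 5807 in the CUMS rats (0.16 in CUMS 1–3 and 0.27 in CUMS 4–6, adjusted p = 0.819 and 0.767), and without control 3 the differences were 0.05 and 0.16. Ndufa6, at the matrix arm, read 9878, 8660 and 7867 in the controls, 10165, 11502 and 9471 in CUMS 1 to 3 and 10041, 10477 and 10916 in CUMS 4 to 6, with log2 differences of 0.24 and 0.26 (adjusted p = 0.742 and 0.778), or 0.16 and 0.18 without control 3. CUMS 3 overlapped the controls here, and CUMS 4–6 did not. Ndufb5, Ndufb6 and Ndufc1, small subunits of the membrane arm, had differences of 0.13, 0.13 and 0.16 in CUMS 1–3 and 0.24, 0.26 and 0.29 in CUMS 4–6. Of the 12 members at an unadjusted p under 0.05 in CUMS 4–6, 5 stayed there without control 3: Ndufa12, Ndufa7, Ndufb2, Ndufb6 and Atp5po.

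Ndufa5, an accessory subunit of the matrix arm, had a wide spread in every group. It read 3621, 1928 and 1920 in the controls, 2580, 1777 and 1873 in CUMS 1 to 3 and 2604, 1900 and 1259 in CUMS 4 to 6, so that every group held 1 high rat and the ranges overlapped. Its log2 difference was −0.21 in CUMS 1–3 and −0.37 in CUMS 4–6 (SE 0.29, adjusted p = 0.928 and 0.861), and without control 1 the first of these became 0.09. Ndufa4, which carries a complex I name but is known as a component of cytochrome c oxidase, read 13362, 13309 and 11832 in the controls and 13043 to 14695 in the CUMS rats (0.08 and 0.17).

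Complex II, or succinate dehydrogenase, which also works in the citric acid cycle, had 8 of 8 genes higher in CUMS 1–3 (median 0.11) and 7 of 8 in CUMS 4–6 (median 0.16). Without control 3 these medians were 0.08 and 0.06, with 6 of 8 higher in each. Sdha, the flavoprotein that oxidises succinate, read 7548, 7283 and 6218 in the controls, 7943, 7456 and 7406 in CUMS 1 to 3 and 7858, 7871 and 7524 in CUMS 4 to 6, with log2 differences of 0.12 and 0.15 (SE 0.10, adjusted p = 0.850 and 0.830). CUMS 2, CUMS 3 and CUMS 6 lay between control 2 and control 1. Sdhb, the iron-sulphur subunit, read 7750, 8026 and 5573 in the controls and 6941 to 8726 in the CUMS rats (0.06 and 0.22, or −0.10 and 0.06 without control 3), and Sdhc, a membrane anchor, differed by 0.06 and 0.08, both of which turned below 0 without control 3. Sdhd, the other anchor, read 8720, 8545 and 7768 in the controls, 9875, 9746 and 8656 in CUMS 1 to 3 and 9802, 9401 and 9246 in CUMS 4 to 6, with CUMS 4–6 clear of the controls (0.18 and 0.19, adjusted p = 0.760 and 0.782). Without control 3 its differences were 0.12 and 0.14. A dimmer probe set of Sdhd, at 4248 to 6650, had 0.15 and 0.25, with CUMS 4–6 overlapping the controls.

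The 1 member with an unadjusted p under 0.05 in CUMS 1–3 was no subunit but Sdhaf3, an assembly factor that helps mature the iron-sulphur subunit of complex II. It read 1028, 773 and 791 in the controls, 1082, 1184 and 996 in CUMS 1 to 3 and 898, 1086 and 1079 in CUMS 4 to 6. Control 1 lay within the range of both CUMS groups. Its log2 difference was 0.34 in CUMS 1–3 and 0.25 in CUMS 4–6 (SE 0.15, adjusted p = 0.737 and 0.821), and without control 3 it was 0.28 in CUMS 1–3, no longer at an unadjusted p under 0.05.

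Complex III, which moves electrons from ubiquinone to cytochrome c, had 8 of 8 genes higher in both groups, with medians of 0.09 in CUMS 1–3 and 0.14 in CUMS 4–6. With control 3 left out the medians were 0.02 (5 of 8 higher) and 0.06 (8 of 8 higher). Its catalytic subunits differed by about 0.1: Cyc1, or cytochrome c1, by 0.11 and 0.14, and Uqcrfs1, the Rieske iron-sulphur protein, by 0.10 and 0.10. The core protein Uqcrc1 differed by 0.13 and 0.16, its partner Uqcrc2 by 0.12 and 0.12, and the hinge protein Uqcrh by 0.01 and 0.05. A dimmer probe set of Uqcrc2 had −0.03 and −0.05. Uqcrq, which binds ubiquinone, was the exception in size. It read 11614, 12334 and 9455 in the controls, 12082, 12519 and 10755 in CUMS 1 to 3 and 13890, 13257 and 12673 in CUMS 4 to 6, so that CUMS 4–6 lay above every other rat (0.09 and 0.26, adjusted p = 0.919 and 0.778). Without control 3 its differences were −0.03 and 0.15. Those of Uqcrfs1 and Uqcrh in CUMS 1–3 also turned below 0 without this rat. Uqcr10, a small subunit, had controls within a range of 11901 to 12010, with CUMS 1–3 at 12427 to 13261 and CUMS 4–6 at 13121 to 14037, all above the controls, and differences of 0.09 and 0.17 (adjusted p = 0.872 and 0.779).

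Complex IV, cytochrome c oxidase, had the smallest medians, 0.03 in CUMS 1–3 (11 of 17 genes higher) and 0.05 in CUMS 4–6 (10 of 17 higher), of which 6 genes lay below the signal filter. Over the 11 tested the medians were 0.05 and 0.10. The medians over the 17 genes without control 3 were −0.01 (7 higher) and 0.05 (12 higher). The regulatory subunit Cox4i1, the isoform of most tissues, read 15955, 15538 and 13359 in the controls and 14666 to 16814 in the CUMS rats (0.04 and 0.10), and Cox6c, which lies beside the catalytic core, differed by 0.02 and 0.06. Cox5b, Cox6a1 and Cox6b1, whose products are structural subunits, had differences of 0.05, 0.09 and 0.08 in CUMS 1–3 and 0.16, 0.14 and 0.16 in CUMS 4–6. Cox8a, the liver-type form of the smallest subunit, had 0.09 and 0.20, and Cox7a2l, a factor that joins complex III and complex IV into supercomplexes, 0.01 and 0.04. When control 3 was left out, the differences of Cox4i1, Cox5b, Cox6c and Cox8a in CUMS 1–3 were −0.04, −0.04, −0.04 and −0.01. After quantile normalization those of Cox4i1, Cox6c and Cox7a2l in CUMS 4–6 lay below 0. The pseudogene Cox6c-ps1 read 125 to 221 over the 9 rats with no order between groups.

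Cox5a, another subunit of complex IV, differed in direction between the CUMS groups. It read 737, 706 and 694 in the controls, 706, 554 and 604 in CUMS 1 to 3 and 715, 740 and 792 in CUMS 4 to 6, so that all of CUMS 4–6 were above all of CUMS 1–3. The log2 difference from control was −0.20 in CUMS 1–3 and 0.07 in CUMS 4–6, and the direct difference between them was −0.27 (SE 0.13), which did not pass (adjusted p = 0.9996 from limma). A brighter probe set that the annotation gives to Cox5a together with LOC100361008 read 8751 to 9712 in the controls, 9528 to 9883 in CUMS 1–3 and 9492 to 10384 in CUMS 4–6, with differences of 0.05 and 0.11 from control and −0.06 between the CUMS groups. The probe sets thus disagree in CUMS 1–3.

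The genes below the signal filter are the isoforms of other tissues. Cox6a2, Cox7a1 and Cox8b are the heart- and muscle-type forms of their subunits, Cox4i2 is a form of lung and hypoxic cells, Cox6b2 and Cox7b2 are testis forms, and Ndufa4l2 is a paralogue of Ndufa4 that low oxygen induces. Their signals over the 9 rats were 10.8 to 58.4 for Cox6a2, 10.5 to 93.2 for Cox7a1, 3.08 to 32.1 for Cox8b, 3.07 to 52.9 for Cox4i2, 7.34 to 117 for Cox6b2 and 6.23 to 59.1 for Cox7b2. Ndufa4l2 read 58.9, 61.5 and 66.4 in the controls, 32.4, 33.1 and 96.7 in CUMS 1 to 3 and 30.0, 30.1 and 25.4 in CUMS 4 to 6. All of CUMS 4–6 lay below the controls and CUMS 3 was the highest rat. These 7 genes were not tested, and folds at such signals carry little information. The median signal of an array was 107 to 133.

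Complex V, the ATP synthase, had 15 of 16 genes higher in CUMS 1–3 (median 0.10) and 14 of 16 in CUMS 4–6 (median 0.16). Without control 3 these were 10 of 16 (median 0.02) and 14 of 16 (median 0.09). In the catalytic head, Atp5f1a (alpha) read 9586, 10714 and 8907 in the controls, 11539, 10931 and 9090 in CUMS 1 to 3 and 10774, 10836 and 10697 in CUMS 4 to 6 (0.11 and 0.15). CUMS 4–6 lay close together at the level of control 2, CUMS 1 and CUMS 2 above it and CUMS 3 among the lower controls. Atp5f1b (beta), which holds the catalytic sites, read 15270, 14661 and 12705 in the controls and 14143 to 16186 in the CUMS rats (0.10 and 0.16), and Atp5f1c (gamma), the rotating shaft, had 0.11 and 0.20 and Atp5f1d (delta) 0.08 and 0.14. Atp5mc3, a gene for the c-ring through which the protons pass, had 0.06 and 0.19, or −0.06 and 0.07 without control 3. The probe sets of the other c-ring genes, Atp5mc1 and Atp5mc2, are annotated with a related symbol too, and their differences were 0.19 and 0.32 for Atp5mc1 and 0.03 and 0.17 for Atp5mc2.

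Atp5po, the subunit of the peripheral stalk that confers sensitivity to oligomycin, had the smallest p of all members. It read 6629, 7163 and 5998 in the controls, 7434, 7201 and 6852 in CUMS 1 to 3 and 8330, 8099 and 7823 in CUMS 4 to 6. All of CUMS 4–6 lay above all other rats, and CUMS 3 lay between control 1 and control 2. Its log2 difference was 0.30 in CUMS 4–6 (SE 0.09, adjusted p = 0.744) and 0.12 in CUMS 1–3 (adjusted p = 0.842), and 0.23 in CUMS 4–6 without control 3.

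Atp5if1, the inhibitor that stops ATP synthase from running backwards when the proton gradient fails, went the other way. It read 1041, 918 and 1440 in the controls, 909, 931 and 960 in CUMS 1 to 3 and 935, 778 and 1010 in CUMS 4 to 6, with log2 differences of −0.25 and −0.30 (SE 0.17, adjusted p = 0.817 and 0.806). Control 3 was the highest of the 9 rats, and without it the differences were −0.07 and −0.11. Its other probe sets did not share 1 direction. One had −0.47 in CUMS 1–3 and −0.10 in CUMS 4–6, and the other 0.15 and 0.65. The probe sets of Atp5me, a membrane subunit, disagreed as well. The brighter one had 0.10 and 0.16, and the dimmer one, at 43.0 to 124.1, had −0.29 and 0.67, with a difference between the CUMS groups of −0.95 (adjusted p = 0.9996).

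**Figure D3:**
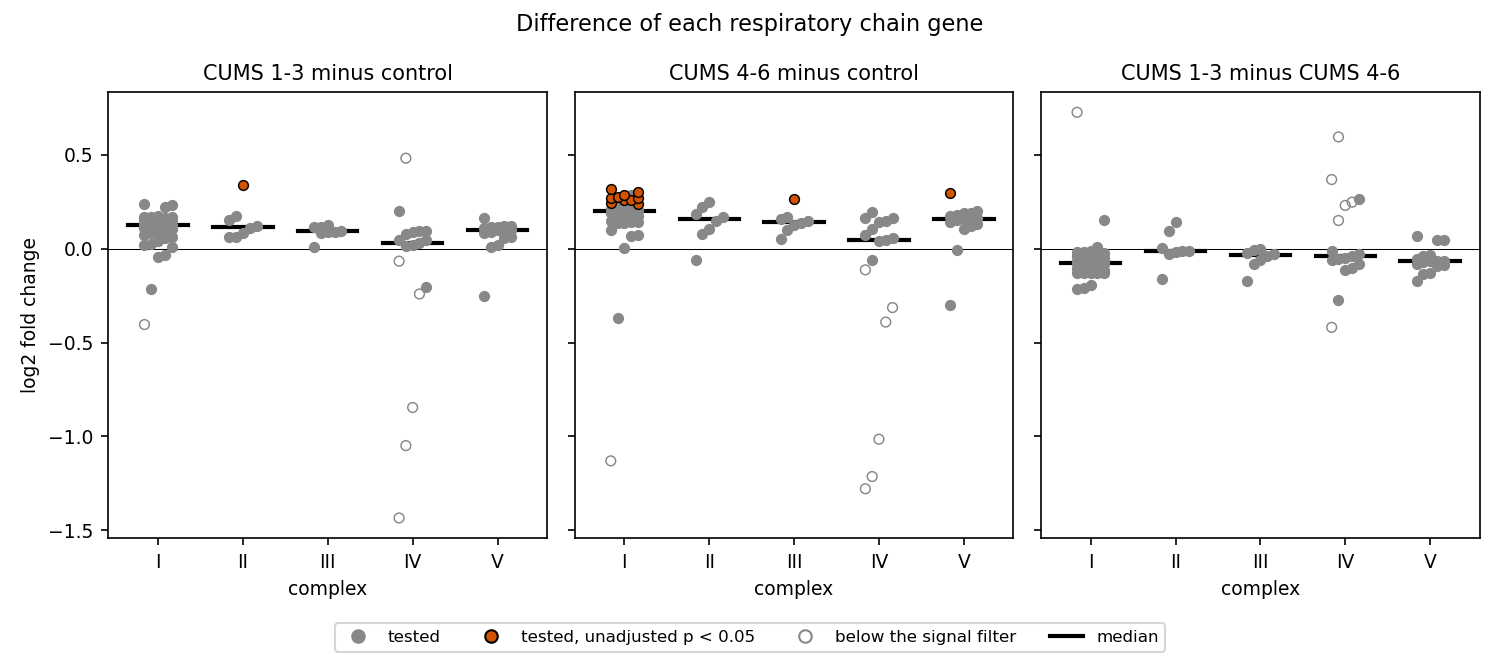
Log2 difference of each member, by complex, for CUMS 1–3 minus control, CUMS 4–6 minus control and CUMS 1–3 minus CUMS 4–6. Filled points were tested, orange points have an unadjusted limma p under 0.05, open points lie below the signal filter and bars are medians over all members of a complex. The tested points lie mostly between 0 and 0.32 in the comparisons with control, and the lowest points are open.

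The CUMS 4–6 rats were often all above the controls. All 3 rats of CUMS 4–6 lay above all 3 controls for 31 members, against 5.34% of all probe sets tested, and below them for 2 members, both under the signal filter, against 6.29%. By complex these 31 were 18 in complex I, 1 in complex II, 2 in complex III, 3 in complex IV and 7 in complex V. Among the 982 other genes in the highest 10% by signal, which are described below, 195 were wholly above the controls. In CUMS 1–3, 5 members lay wholly above the controls, against 5.3% of all probe sets, and 0 below, against 6.32%.

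A difference between the symptom labels was not shown. For CUMS 1–3 against CUMS 4–6, 70 of 85 members had the lower mean in CUMS 1–3, with a median of −0.06 against −0.01 over all genes tested. Other bright genes lay the same way, since the 982 non-members in the highest 10% by signal had a median of −0.07, 27.3% of them higher in CUMS 1–3. At an unadjusted p under 0.05 there were 0 members higher and 0 lower, against 1.52% and 1.32% of all probe sets, and 0 adjusted calls. The ranges did not overlap for 9 members lower in CUMS 1–3 and 1 higher, against 4.37% and 4.75% of all probe sets and 111 and 16 of those 982 genes. After Cox5a, the smallest p in this comparison belonged to Ndufv3, an accessory subunit of the NADH-binding module, which read 5588, 5000 and 4719 in CUMS 1 to 3 and 6251, 6041 and 5492 in CUMS 4 to 6 (log2 difference −0.22, SE 0.10, adjusted p = 0.9996). A dimmer probe set of Ndufv3, at 183 to 544, had 0.06 between the CUMS groups. From control it had −0.10 in CUMS 1–3 and −0.16 in CUMS 4–6, so the probe sets disagree. After quantile normalization 35 of the 78 members tested were higher and 43 lower, so the common direction in this comparison depended on the scaling.

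The members are bright probe sets, and other bright probe sets differed in the same direction. Of the 78 members tested, 59 fell in the highest 10% of genes by mean signal, a mean of at least 3720. The other 982 genes in that range had a median log2 difference of 0.03 in CUMS 1–3, with 59.4% higher, and 0.10 in CUMS 4–6, with 74.7% higher. The 59 members had 0.10 and 0.16. After quantile normalization, which gives every array the same distribution of signals, the 982 other genes had medians of 0.01 and 0.01 and the 85 members 0.07 and 0.07. With arrays centred on the median the members had 0.14 and 0.21 and the other bright genes 0.08 and 0.16. Without control 3, the bright genes that are no members had −0.01 and 0.04. The median of all genes tested moved by less than 0.1 under either scaling.

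**Figure D4:**
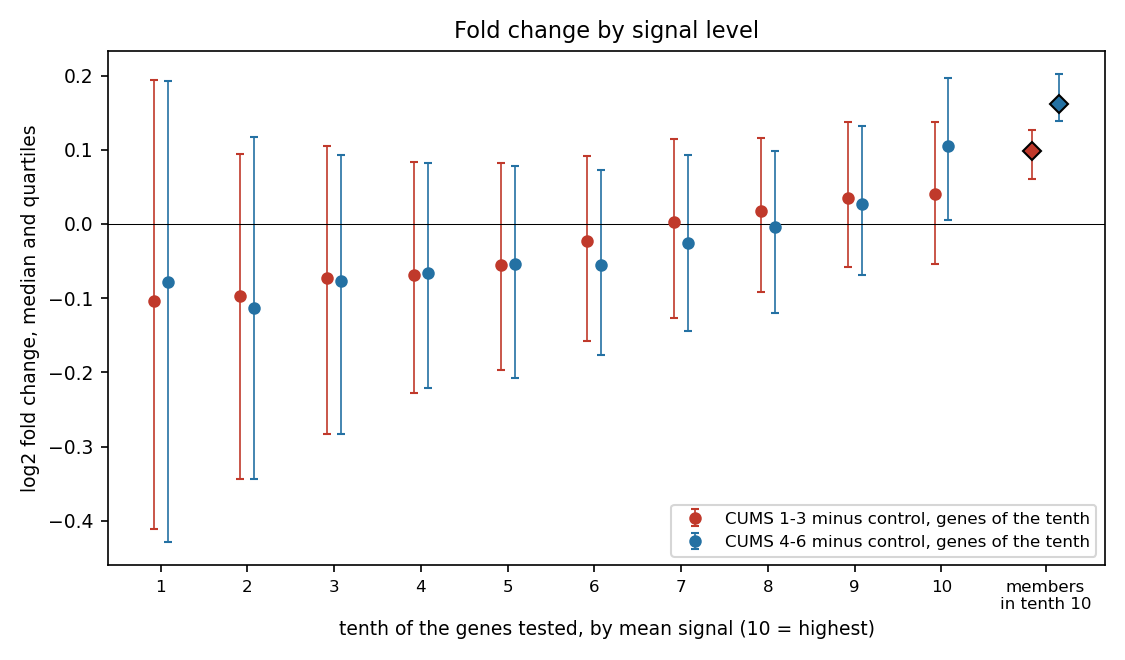
Median log2 difference from control, with quartiles, in 10 equal bins of the genes tested by mean signal (circles), and for the 59 members in the brightest bin (diamonds). Medians run from −0.10 and −0.08 in the dimmest bin to 0.04 and 0.10 in the brightest for CUMS 1–3 and CUMS 4–6, and the members lie at 0.10 and 0.16.

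Genes that work beside the chain gave mixed values. None of the 13 subunits that mitochondrial DNA encodes had a probe set of its own symbol here, so the mitochondrial genome was not analysed here. Of 14 citric acid cycle genes, 13 were higher in CUMS 1–3 (median 0.18) and 12 in CUMS 4–6 (0.13), with 3 and 3 at an unadjusted p under 0.05. The smallest p in both belonged to Mdh2, mitochondrial malate dehydrogenase, at 0.33 and 0.25 (SE 0.10, adjusted p = 0.685 and 0.770). Without control 3 the medians of this list were 0.11 and 0.06. Of 12 electron carriers and coenzyme Q genes, 5 were higher in CUMS 1–3 (median −0.04) and 11 in CUMS 4–6 (0.22), with 2 and 4 at an unadjusted p under 0.05, and without control 3 the medians were −0.03 and 0.16. The genes of both lists at this p were all higher. At the same p, 2.59% of all probe sets were higher in CUMS 1–3 and 2.73% in CUMS 4–6. Of the 982 bright genes that are not members, 65 and 119 were. Etfa and Etfb, the subunits of the flavoprotein that carries electrons from fatty acid oxidation, had 0.30 and 0.28 in CUMS 4–6 (adjusted p = 0.744 and 0.744).

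Of 11 complex I assembly factors, 9 were higher in both groups, with medians of 0.08 and 0.15, while Ndufaf1, which helps build the membrane arm, was lower in CUMS 1–3, at −0.52 (SE 0.18, adjusted p = 0.722). Of 30 assembly factors of the other complexes, 22 and 24 were higher (medians 0.09 and 0.10), led in CUMS 1–3 by Cox11, which inserts copper into complex IV, at 0.68 (SE 0.23, adjusted p = 0.722). Sdhaf3 belongs to this list as well. Of 72 mitochondrial ribosomal protein genes, 50 and 54 were higher (medians 0.07 and 0.06). The medians of these lists without control 3 were 0.05 and 0.10, 0.04 and 0.06, and 0.02 and 0.02. Of 20 regulators of mitochondrial biogenesis, 13 and 11 were higher (medians 0.09 and 0.11, or 0.03 and −0.04 without control 3). Among these Tfam, which packages and transcribes mitochondrial DNA, read 1765, 1578 and 1453 in the controls, 2045, 1837 and 1910 in CUMS 1 to 3 and 1715, 1829 and 1658 in CUMS 4 to 6. CUMS 1–3 lay above the controls (0.28, adjusted p = 0.733) and CUMS 4–6 overlapped them. Ppargc1a, the coactivator that drives mitochondrial biogenesis, read 232, 771 and 315 in the controls, 260, 330 and 355 in CUMS 1 to 3 and 1038, 152 and 276 in CUMS 4 to 6, with 1 rat far above the others in the first and last group.

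Cytosolic ribosomal protein genes, another set of bright probe sets, had medians of −0.05 in CUMS 1–3 and 0.02 in CUMS 4–6 over 42 genes. Without control 3 these were −0.01 and 0.04. The 18 hepatocyte markers had −0.05 and 0.10, or −0.17 and −0.0068 without control 3, and the 15 stellate cell and fibroblast markers −0.94 and −0.54, or −0.44 and −0.23 without control 3. The 13 Kupffer and myeloid markers had −0.46 and −0.43, or −0.29 and −0.16 without control 3, and the 6 bile duct markers −0.75 and −0.42, which without control 3 were −0.12 and −0.12. The 9 endothelial markers had 0.05 and −0.02, and the 10 genes of uncoupling and ADP exchange 0.01 and 0.01, which without control 3 were 0.13 and 0.18, and −0.0081 and 0.06. Stellate cell, Kupffer cell and bile duct markers had medians below the controls in both CUMS groups, in which the respiratory chain had medians above them. For CUMS 1–3 against CUMS 4–6, the respiratory chain had a median of −0.06 and the hepatocyte markers −0.15. The stellate cell markers had −0.38, the Kupffer and myeloid markers −0.14, the bile duct markers −0.09 and the endothelial markers −0.03. The part of these markers in the result was not tested.

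At the thresholds of the methods, an unadjusted p under 0.05 from a conventional variance test with a fold of at least 1.5 or at most 0.5 and no signal filter, 0 members were higher in any of the 4 comparisons, against 1.26% of 31042 probe sets in CUMS 1–3, 1.19% in CUMS 4–6, 1.56% in all CUMS and 1.08% between the CUMS groups. A single member passed in the lower direction, Ndufa4l2 in CUMS 4–6, at the low signals given above, against 0.876% of probe sets. In the other comparisons 0 members passed in that direction, against 0.699%, 0.883% and 0.557%.

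The choice by symbol did not use the promoters, which are described last. RefSeq promoters (rat genome build GRCr8, 250 bases before to 50 after the annotated start) were matched by gene ID for 76 of the 85 members. They were searched on both strands for short cores that are known from promoters of respiratory chain genes. These are CCGGAAG of the ETS family, to which the mitochondrial regulator GABP belongs, GCATGCGC of NRF1, AAGATGGC of YY1, AAGGTCA of the estrogen-related receptors (ERR) and TGACGTCA, the cyclic AMP response element (CRE). No core contains another, but the ETS core ends in the 3 bases with which the YY1 and ERR cores begin. A match says only that these letters are in the window.

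The ETS core was in 32.9% of the 70 promoters of members above the signal filter, against 18.4% of those of 8688 genes tested on the array and 9.22% of all 27457 promoters. The NRF1 core was in 10%, against 5.08% and 2.66%, the YY1 core in 21.4%, against 5.79% and 3.44%, and the ERR core in 15.7%, against 2.88% and 4.37%. CRE was in 4.29%, against 3.25% and 1.91%. Of the 6 tissue-specific members with a promoter, 0 held the ETS or the NRF1 core. By complex, the YY1 core was in 9 of 34 promoters of complex I and 4 of 15 of complex V. The ERR core was in 3 of 34 of complex I and 5 of 15 of complex V, with 4 of these 5 before the start. In complexes II, III and IV each of these cores was in 1 of 8, 1 of 6 and 1 of 13. The median GC content was 56.2% in the 70 promoters and 61.0% in those of the genes tested.

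**Figure D5:**
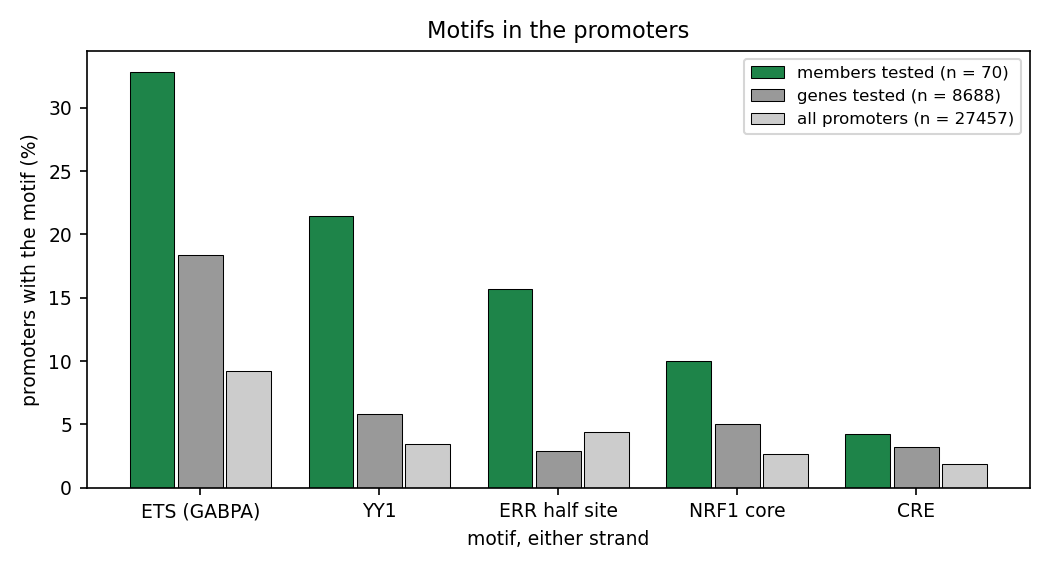
Share of promoters with each motif on either strand, in members above the signal filter (n = 70), in genes tested on the array (n = 8688) and in all RefSeq promoters (n = 27457). The bars of the members are the highest for each of the 5 motifs, with 32.9% for ETS at the left and 4.29% for CRE at the right.

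The promoters of 4 members held both the ETS and the NRF1 core, and their 250 bases before the start are shown to let these cores be seen side by side, with both in capitals. They are those of Ndufa6 (chr7:115750318-115750567, minus strand), Sdhb (chr5:158547684-158547933, plus strand), Atp5me (chr14:1464610-1464859, plus strand) and Atp5mg (chr8:54130408-54130657, minus strand), in GRCr8. Atp5me and Atp5mg encode small membrane subunits of ATP synthase. In Atp5me the capitals at the NRF1 core cover 2 overlapping matches, one on each strand.
Ndufa6: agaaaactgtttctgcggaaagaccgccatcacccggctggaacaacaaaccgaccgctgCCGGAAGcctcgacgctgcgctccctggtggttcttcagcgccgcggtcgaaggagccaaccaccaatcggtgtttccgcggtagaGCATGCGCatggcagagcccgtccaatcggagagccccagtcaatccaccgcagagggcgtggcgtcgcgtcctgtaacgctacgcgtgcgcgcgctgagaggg
Sdhb: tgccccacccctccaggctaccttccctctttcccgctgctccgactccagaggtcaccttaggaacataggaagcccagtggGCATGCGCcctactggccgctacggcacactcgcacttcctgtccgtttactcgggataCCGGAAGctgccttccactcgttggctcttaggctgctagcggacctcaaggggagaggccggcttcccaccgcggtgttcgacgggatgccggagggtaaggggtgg
Atp5me: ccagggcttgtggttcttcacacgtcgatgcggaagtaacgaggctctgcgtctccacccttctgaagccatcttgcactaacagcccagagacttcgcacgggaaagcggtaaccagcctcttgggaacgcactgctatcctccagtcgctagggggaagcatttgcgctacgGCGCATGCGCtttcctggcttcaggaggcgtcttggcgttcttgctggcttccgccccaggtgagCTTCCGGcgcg
Atp5mg: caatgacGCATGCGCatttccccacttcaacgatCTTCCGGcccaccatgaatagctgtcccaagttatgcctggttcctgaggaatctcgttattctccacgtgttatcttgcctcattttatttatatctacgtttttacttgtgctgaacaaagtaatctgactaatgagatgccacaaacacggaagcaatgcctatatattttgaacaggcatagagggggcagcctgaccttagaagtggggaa

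The 4 complex V promoters with the ERR core before the start hold it in the same orientation (TGACCTT on the strand of the gene), with its first base 33, 21, 57 and 19 bases before the start. The stretches around it are shown with the core in capitals. They are those of Atp5f1a (chr18:73567487-73567527, plus strand), Atp5f1e (chr3:183680173-183680210, minus strand), Atp5mc3 (chr3:79220698-79220738, minus strand) and Atp5mg (chr8:54130408-54130443, minus strand).
Atp5f1a: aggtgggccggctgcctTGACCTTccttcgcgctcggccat
Atp5f1e: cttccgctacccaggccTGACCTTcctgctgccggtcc
Atp5mc3: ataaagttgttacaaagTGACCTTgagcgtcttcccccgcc
Atp5mg: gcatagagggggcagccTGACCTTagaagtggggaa

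Members with and without these cores were not compared as groups. Sdhaf3, with the ETS core, had the largest log2 difference of the tested members in CUMS 1–3, at 0.34. Ndufa6, with both ETS and NRF1 cores, had log2 differences of 0.24 and 0.26 in CUMS 1–3 and CUMS 4–6, Sdhb 0.06 and 0.22 (−0.10 and 0.06 without control 3), Atp5me 0.10 and 0.16 (−0.03 and 0.04) and Atp5mg 0.10 and 0.13. Ndufa12 and Ndufs3, among those with the largest differences, held none of the 5 cores in the window.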

How the data were processed

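Liver RNA of each rat was hybridised to 1 Affymetrix rat expression array after 3′ in vitro transcription labelling. The authors deposited MAS 5.0 signals per probe set, a linear intensity scaled per array, and these deposited values were used as given. The annotation pairs probe sets with symbols. Probe sets with several symbols were left out of the members (7 belong to respiratory chain genes), and 9 members had several probe sets of their own. Signals under 1 were set to 1 (586 values) and log2 was taken. Control probe sets (57 of 31099) were removed. The 40% of probe sets with the lowest mean were left out, which kept 18625 with a mean log2 signal above 6.07. All 3 groups were fitted in limma 3.58.1 (R 4.3.3) with a variance trend, 6 residual degrees of freedom and Benjamini-Hochberg adjustment, at an adjusted p under 0.05. The unit of replication is the rat. The number of arrays limits the precision.

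Members named with values were core and isoform subunits, those with an unadjusted p under 0.05 (up to 10 per comparison), the one with the smallest p in each direction in each complex, and those whose probe sets disagreed. The members, gene lists and rules were chosen with earlier results of these data known. Fits were tested on simulated data. Alternatives were quantile normalization, median centring, an offset of 50, other filters, no variance trend, array weights, only the groups compared, the replicate number as a block, the mean of all probe sets, the methods' ANOVA and leaving out each rat. Control 1 to 3 and CUMS 1 to 3 share numbers. The correlations of the deviations of same-numbered rats were 0.00296, −0.0486 and 0.140, and those of differently numbered rats ran from −0.149 to 0.155. With 3 rats a group these values cannot decide whether the numbers pair rats. The main fit used no pairing. Promoters were searched and figures drawn with Python 3.11.15.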

Additional observations from a re-analysis of the deposited data

Results flagged for a closer look

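Among the 6 CUMS rats, CUMS 3 stood apart from the others in Atp5f1a, the alpha subunit of ATP synthase, at a signal of 9090 against 10697 to 11539, and its gap to the next rat was 0.682 of the range of log2 signals. In the mean log2 signal over the tested genes of complex V, CUMS 3 was again the lowest, with a gap of 0.717 of the range. Chance flags about 1 in 20 groups of samples in this way. In Cox5a each rat of CUMS 1–3 read below the control mean and each rat of CUMS 4–6 above it, with a log2 difference of −0.27 between these groups, which did not pass (adjusted p = 0.9996 from limma). The range of CUMS 1–3 overlapped that of the controls, and the brighter probe set that Cox5a shares with LOC100361008 had a difference of 0.05 in CUMS 1–3.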

How the results depend on the processing

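The calls over all probe sets were 0 in each comparison and stayed 0 except for 1 in CUMS 1–3 with the methods' ANOVA without a signal filter and, with median centring, 1 in CUMS 4–6 and 1 in all CUMS. Of the values that answer a comparison, 748 under alternatives stayed close to the main value. For a count this means within a set ratio of it, and for a median a move below the SD between rats of a group. A median could turn direction within that limit, as that of complex IV in CUMS 1–3 did without control 3. Part of the 748 could not differ from the main value. The medians do not depend on the filter, the variance trend, the groups fitted or the block. Leaving out a rat outside a comparison also leaves its medians unchanged. Another 29 counts were larger, 27 were smaller and 4 medians moved further. For these the cause was not tested. Members higher at an unadjusted p under 0.05 in CUMS 1–3 (1) were 2 with quantile normalization, 0 with only the groups compared, 0 with no variance trend, 2 with ANOVA and 0 (without control 3) to 5 (without CUMS 3) leaving out each rat. In CUMS 4–6 (12) they were 6 with quantile normalization, 3 with median centring, 4 with no variance trend and 5 (without control 3) to 17 (without control 2) leaving out each rat. In all CUMS (11) they were 6, 2 and 1 under the same alternatives, 17 with ANOVA and 2 (without control 3) to 15 (without CUMS 3) leaving out each rat. Members lower (0 throughout) in CUMS 4–6 were 1 with no signal filter and 1 with ANOVA, and in CUMS 1–3 against CUMS 4–6 they were 1 with quantile normalization, 1 with no filter and 2 with ANOVA. Leaving out each rat gave 0 to 1 in CUMS 1–3, 0 to 1 in CUMS 4–6, 0 to 2 between the CUMS groups and 0 to 1 in all CUMS, with the 2 seen without CUMS 1 and the others without control 2. With quantile normalization the median in CUMS 4–6 was 0.073 over the members and 0.063 over complex V. Leaving out each rat, the complex II median ran from 0.060 to 0.19 in CUMS 4–6 and from 0.051 to 0.18 in all CUMS, lowest without control 3.

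Counts of tested members with a lower or higher mean under other settings were chosen after seeing the data. Those lower in CUMS 1–3 (5) were 12 with quantile normalization, 3 with median centring and 3 to 27 leaving out each rat, those in CUMS 4–6 (5) were 11 with quantile normalization and 3 to 9, and those in all CUMS (4) were 10 and 2 to 15, each highest without control 3. Between the CUMS groups 9 were higher and 69 lower. These were 35 and 43 with quantile normalization, and the higher ones 7 to 27 leaving out each rat, highest without CUMS 3. Of the named members' log2 differences, those below turned direction under at least 1 alternative. Leaving out each rat in CUMS 1–3, with the lowest value without control 3, they ran from −0.021 to 0.10 for Ndufv1, −0.10 to 0.16 for Sdhb, −0.020 to 0.12 for Sdhc, −0.0032 to 0.16 for Uqcrfs1, −0.025 to 0.17 for Uqcrq, −0.036 to 0.092 for Cox4i1, −0.042 to 0.11 for Cox5b, −0.036 to 0.060 for Cox6c, −0.0086 to 0.15 for Cox8a, −0.059 to 0.14 for Atp5mc3 and −0.0024 to 0.11 for Atp5pf. With other rats deciding, they ran from −0.38 to 0.090 for Ndufa5, −0.11 to 0.0079 for Ndufv3, −0.019 to 0.14 for Sdhaf2, −0.11 to 0.068 for Uqcrh and −0.029 to 0.074 for Cox7a2l. In CUMS 4–6 they ran from −0.0036 to 0.13 for Sdhc, −0.025 to 0.12 for Uqcrh, −0.17 to 0.082 for Cox6c-ps1 and −0.10 to 0.12 for Atp5pf, between the CUMS groups from −0.12 to 0.41 for Ndufa5 and −0.064 to 0.16 for Atp5pf, and in all CUMS from −0.44 to 0.013 for Ndufa5. With quantile normalization Uqcrh (−0.016) and Cox7a2l (−0.025) turned in CUMS 1–3, and Uqcrh (−0.030), Cox4i1 (−0.0088), Cox6c (−0.041), Cox7a2l (−0.0014) and Cox6c-ps1 (0.027) in CUMS 4–6. With median centring Ndufv3 was 0.0019 in CUMS 1–3 and Atp5pf 0.052 in CUMS 4–6, and with array weights Uqcrh was −0.020 and −0.0023.

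With the replicate number as a block, CUMS 1–3 against control had 0 calls, and no call changed. The block does not enter the member median. The number of arrays, 3 a group, limits the precision, and 7 members lie too near background to be compared.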
